A study of Mus musculus with 8 samples.

Results

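The receptors of the TGF-β and BMP family were examined as 9 genes chosen by name: Tgfbr1, Tgfbr2, Tgfbr3, Eng, Acvr1, Acvr2a, Acvrl1, Bmpr1a and Bmpr2. All 9 were found among the 54532 genes of the deposited expression table, and all 9 passed the filter on low values that left 11667 genes for testing. The cells were PDGFRα-positive cardiac fibroblasts of the mouse, sorted by FACS from infarcts 7 days after coronary occlusion and sequenced as poly(A) RNA without culture. The 4 samples of the FTbR2KO group, numbered 1 to 4 in their titles, came from mice with a fibroblast-specific knockout of TbR2, the type II TGF-β receptor encoded by Tgfbr2. The 4 samples of the TbR2fl/fl group, numbered 5 to 8, came from control mice that carry the floxed gene. Both groups had received tamoxifen. The sources used here name no Cre driver, deleted exon or age of the mice. They do not state whether samples came from separate animals, and p-values therefore cover only the spread among samples, which may be technical.

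Receptors of this family work as complexes of transmembrane serine/threonine kinases. A dimeric ligand brings type II receptors together with type I receptors, the type II kinase phosphorylates the type I receptor at a short glycine- and serine-rich stretch called the GS box, and the activated type I kinase phosphorylates Smad proteins. Tgfbr2 is the type II receptor for TGF-β and signals mainly with the type I receptor Tgfbr1 (ALK5). Bmpr2 and Acvr2a are type II receptors for BMPs and activins, Bmpr1a (ALK3), Acvr1 (ALK2) and Acvrl1 (ALK1) are type I receptors on the BMP side, and Tgfbr3 (betaglycan) and Eng (endoglin) are co-receptors that present ligand and carry no kinase. In fibroblasts TGF-β signalling through Smad3 is known for driving matrix production and myofibroblast conversion in healing infarcts.

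The division into roles can be read in the coding sequence. One principal GENCODE transcript of each member was translated and searched for 2 patterns: the codons for serine or threonine followed by glycine, serine, glycine, serine and glycine (the GS box), and the codons for histidine, arginine and aspartate of the kinase catalytic loop, followed by 1 codon for leucine, phenylalanine, isoleucine or valine and 1 for lysine or asparagine. The GS box codons were present in all 4 type I receptors and were not found in the 3 type II receptors or the 2 co-receptors. The catalytic loop codons were present in all 7 kinases and in neither co-receptor. Among 21712 mouse genes scanned in the same way, 0.203% held the first pattern, 1.26% the second and 10 genes both. The 4 GS box stretches are shown because they are what a type II kinase acts on. The capitals mark the GS box codons, and positions refer to GRCm38.
Tgfbr1 (chr4:47393468-47396368, plus strand, across the junction of exons 3 and 4): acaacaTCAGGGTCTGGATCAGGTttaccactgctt
Acvr1 (chr2:58474219-58474254, minus strand, exon 6): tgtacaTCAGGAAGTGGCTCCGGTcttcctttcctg
Acvrl1 (chr15:101136146-101136181, plus strand, exon 6): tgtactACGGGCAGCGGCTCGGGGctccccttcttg
Bmpr1a (chr14:34429656-34429691, minus strand, exon 8): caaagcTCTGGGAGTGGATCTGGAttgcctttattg
The catalytic loops of the 3 type II kinases follow, because the targeted gene is 1 of them and the loop carries residues that the kinase reaction needs. The capitals mark the histidine, arginine and aspartate codons.
Tgfbr2 (chr9:116109600-116109635, minus strand, exon 4): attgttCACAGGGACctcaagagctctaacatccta
Bmpr2 (chr1:59851195-59851230, plus strand, exon 8): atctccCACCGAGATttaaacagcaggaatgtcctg
Acvr2a (chr2:48893642-48894690, plus strand, across the junction of exons 7 and 8): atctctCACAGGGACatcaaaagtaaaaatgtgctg
Over these 36 bases Tgfbr2 was identical to Acvr2a at 63.9% of positions and to Bmpr2 at 55.6%.

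What a gene-level value covers differs among the members. The counted length given in the table equalled the summed exons of the GENCODE gene in all 9 cases, and the coding part of that length was 17.3% for Bmpr2, 21.7% for Tgfbr2, 24.3% for Tgfbr1 and up to 52.3% for Eng. On GRCm38 the type II genes lie at chr9:116084293-116175360 (Tgfbr2, ENSMUSG00000032440, minus strand), chr1:59763400-59879014 (Bmpr2, plus strand) and chr2:48814109-48903269 (Acvr2a, plus strand). The type I genes lie at chr4:47353222-47414931 (Tgfbr1, plus strand), chr2:58388644-58567157 (Acvr1, minus strand), chr15:101128522-101145336 (Acvrl1, plus strand) and chr14:34410734-34503341 (Bmpr1a, minus strand). The co-receptor genes lie at chr2:32646595-32682669 (Eng, plus strand) and chr5:107106570-107289629 (Tgfbr3, minus strand). For Tgfbr2 the 3′ terminal exon block made up 76.5% of the 8187 counted bases. The 5 internal exons of its principal transcript, exons 2 to 6, made up 1.56% to 9.77% each, the largest being exon 4 with the catalytic loop. A level for the whole gene therefore cannot show whether 1 internal exon is missing from the RNA. Exons of 5 members overlap those of another annotated gene: Acvr2a with Orc4 over 7.84% of its counted bases, Bmpr1a, Acvrl1 and Eng with an opposite-strand gene over 1.51% to 4.57%, and Tgfbr3 with a same-strand predicted gene over 4.54%. The strand setting of the counting is unknown here, so reads in these overlaps cannot be assigned.

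Depth was 16088616 to 22928496 reads in FTbR2KO libraries and 21200735 to 28731923 reads in TbR2fl/fl libraries, as recovered from the deposited values. FTbR2KO 1 and TbR2fl/fl 5 stood apart from the other 6 libraries on the first principal component, which carried 33% of the variance. All 8 fibroblast markers passed the filter, with a mean Pdgfra level of 65.9 ± 13.5 FPKM in FTbR2KO and 57.6 ± 12.2 FPKM in TbR2fl/fl samples (SD, n = 4 each). FPKM is a fragment count scaled by gene length and library size. Of 8 macrophage markers 5 stayed under 1 FPKM in every library, as did 4 of 6 cardiomyocyte and 3 of 4 glial markers. The other macrophage markers reached 7.15 (Cd68), 5.6 (Lyz2) and 1.29 FPKM (C1qa) in their highest library. The other cardiomyocyte markers reached 2.81 (Actc1) and 1.2 FPKM (Tnnt2), and the glial marker S100b 2.83 FPKM. The 8 fibroblast markers summed to 6936 to 8017 FPKM in FTbR2KO and 8222 to 8943 FPKM in TbR2fl/fl libraries, without overlap. This sum was mostly Col1a1 and Col1a2, whose log2 differences, FTbR2KO over TbR2fl/fl, were -0.35 and -0.3. Of the 8 log2 differences, 5 lay above 0 and 3 below. The part of the marker differences in the receptor values was not tested. The 6 pericyte markers summed to 45.2 to 72.0 FPKM in FTbR2KO and 46.6 to 63.0 FPKM in TbR2fl/fl libraries. Most of this sum was Notch3 (25.1 ± 4.55 FPKM in FTbR2KO and 24.6 ± 5.04 FPKM in TbR2fl/fl samples) and Rgs5 (23.2 ± 7.97 FPKM in FTbR2KO and 20.3 ± 0.994 FPKM in TbR2fl/fl samples).

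On FPKM, a level per gene length, Eng was highest of the 9 with a mean over all 8 libraries of 70.5, followed by Acvrl1 (56.9) and Tgfbr2 (51.9). Each of these 3 stood at percentile 91.8 or higher among tested genes in every library. Bmpr1a, Tgfbr3, Acvr1 and Tgfbr1 followed with means of 23.1, 22.7, 20.1 and 16.8 FPKM. Bmpr2 (9.95 FPKM) and Acvr2a (4.16 FPKM) came last. Not all neighbours in this order were separate: the ranges of Eng and Acvrl1, of Acvrl1 and Tgfbr2, of Bmpr1a and Tgfbr3, of Tgfbr3 and Acvr1, and of Acvr1 and Tgfbr1 overlapped. Acvr1 still exceeded Tgfbr1 in 8 of 8 libraries, whereas Bmpr1a exceeded Tgfbr3 in only 4 of 8. The ranges of Tgfbr2 and Bmpr1a, of Tgfbr1 and Bmpr2, and of Bmpr2 and Acvr2a did not overlap.

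On FPKM the type II receptors were dominated by Tgfbr2. It made up 78.4 ± 1.26% of the summed FPKM of the 5 type II receptor genes in FTbR2KO and 77.0 ± 0.901% in TbR2fl/fl samples (SD, n = 4 each). Such shares depend on the counted length, which exceeds the principal transcript unevenly. It was 8187 against 3476 bases for Tgfbr2, 17983 against 12899 for Bmpr2 and 5686 for both in Acvr2a. Among the 7 type I receptor genes Acvrl1 held the largest share, 43.5 ± 2.71% in FTbR2KO and 46.1 ± 2.33% in TbR2fl/fl samples. Tgfbr1, the partner of Tgfbr2, held 13.6 ± 0.741% in FTbR2KO and 12.9 ± 1.33% in TbR2fl/fl samples. Of the 5 family receptors outside the 9, the activin type I receptor Acvr1b was the only one tested (9.5 ± 1.80 FPKM in FTbR2KO and 10.1 ± 1.96 FPKM in TbR2fl/fl samples). Acvr1c, Acvr2b, Bmpr1b and Amhr2 stayed under 1 FPKM in every library.

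Eng and Acvrl1 are best known as endothelial receptors, so endothelial markers were set beside them. Of the 8 markers, Kdr, Tie1, Emcn, Egfl7 and Vwf stayed under 1 FPKM in every library and none was at 0 throughout. Pecam1 measured 0.763 ± 0.317 FPKM in FTbR2KO and 0.736 ± 0.104 FPKM in TbR2fl/fl samples, and Cdh5 0.517 ± 0.277 FPKM in FTbR2KO and 0.665 ± 0.296 FPKM in TbR2fl/fl samples. Tek, the angiopoietin receptor, was higher, at 20.7 ± 3.23 FPKM in FTbR2KO and 19.9 ± 5.11 FPKM in TbR2fl/fl samples. The marker sum was 19.7 to 26.0 FPKM in FTbR2KO and 18.6 to 28.6 FPKM in TbR2fl/fl libraries, nearly all of it Tek. The highest Pecam1 level in any library was 1.17 FPKM, while Acvrl1 was at least 46.6 and Eng at least 52.0 FPKM in every library.

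**Figure D1:**
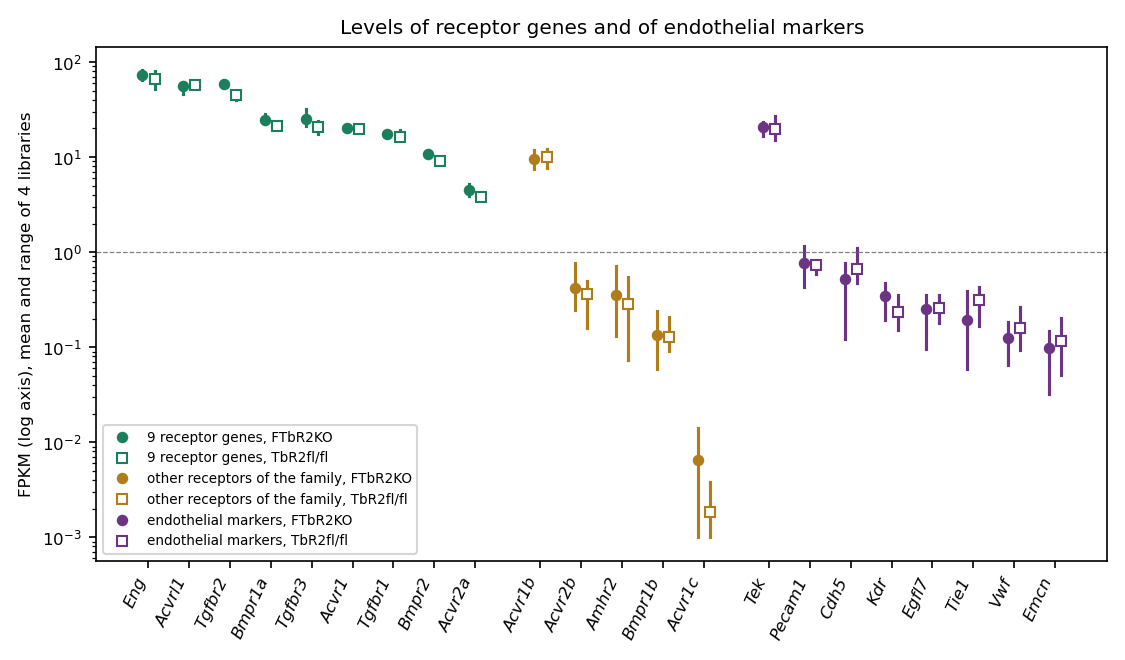
Mean (symbols) and range (lines) of FPKM in 4 FTbR2KO (filled circles) and 4 TbR2fl/fl libraries (open squares) on a log axis, for the 9 receptor genes, 5 other receptors of the family and 8 endothelial markers. Libraries at 0 are drawn at 0.001 and the dashed line is 1 FPKM. Eng, Acvrl1 and Tgfbr2 lie highest, and apart from Tek the endothelial markers average under 1 FPKM.

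The genotype comparison asks how loss of TbR2 alters infarct fibroblasts, and the targeted gene came first. Tgfbr2 measured 60, 58.1, 56.9 and 57.8 FPKM in FTbR2KO 1 to 4, against 49.6, 40.3, 46.7 and 45.4 FPKM in TbR2fl/fl 5 to 8. Every library labelled FTbR2KO was above every control, so total Tgfbr2 transcript was not lower under the knockout label. A whole-gene level cannot test that label. The means were 58.2 ± 1.30 FPKM in FTbR2KO and 45.5 ± 3.86 FPKM in TbR2fl/fl samples (SD, n = 4 each), a level 28.0% higher in FTbR2KO. On the log2(FPKM + 1) scale used for testing, the difference was 0.35 (SE 0.086, 95% confidence interval 0.16 to 0.55). The unadjusted limma p was 0.00262, rank 30 among tested genes, but adjusted over all tested genes it was 0.571 and did not pass the 0.05 threshold. Gene-level values cannot show an internal deletion, so every direction given here is between libraries as they are labelled. In bulk samples, fewer cells of a type and less RNA per cell cannot be told apart.

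No receptor gene passed the adjusted threshold. Limma called 0.0171% of all tested genes higher and 0% lower, and 0 of the 9 members either way. At an unadjusted p under 0.05 there were 2 members, Tgfbr2 and Bmpr2, both higher, where 3.74% of all tested genes were higher and 4.87% lower at that p. Voom on recovered reads also called 0 members. It put 2 under the unadjusted 0.05, where 3.22% of all tested genes were higher and 5.03% lower. That unadjusted count depended on the setting: it was 7 on TPM, where 12.5% of all tested genes were higher and 0.643% lower, and 5 with array weights, where 8.52% were higher and 10.4% lower. With 1 library left out alone, it was 4 without FTbR2KO 4 (5.47% of all tested genes higher, 7.46% lower). It was 1 without FTbR2KO 2 (1.77% higher, 2.44% lower) or FTbR2KO 3 (2.49% higher, 3.33% lower). The count was also 1 without TbR2fl/fl 6 (2.07% higher, 2.6% lower) or TbR2fl/fl 7 (3.46% higher, 3.34% lower). Of the 9 members 8 lay above 0, with a median log2 fold change of 0.17. On TPM, which moved the median of all tested genes by 0.15, 9 of 9 lay above 0 and their median was 0.36, or 0.21 above that of all tested genes. The share of all tested genes above 0 on TPM is not given here, so the 9 of 9 cannot be set against it. On FPKM 48.8% of all tested genes lay above 0 and their median was -0.0045. The groups did not overlap for 1 of 9 members, Tgfbr2, where 2.52% of all tested genes had every FTbR2KO library above and 1.89% every one below.

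**Figure D2:**
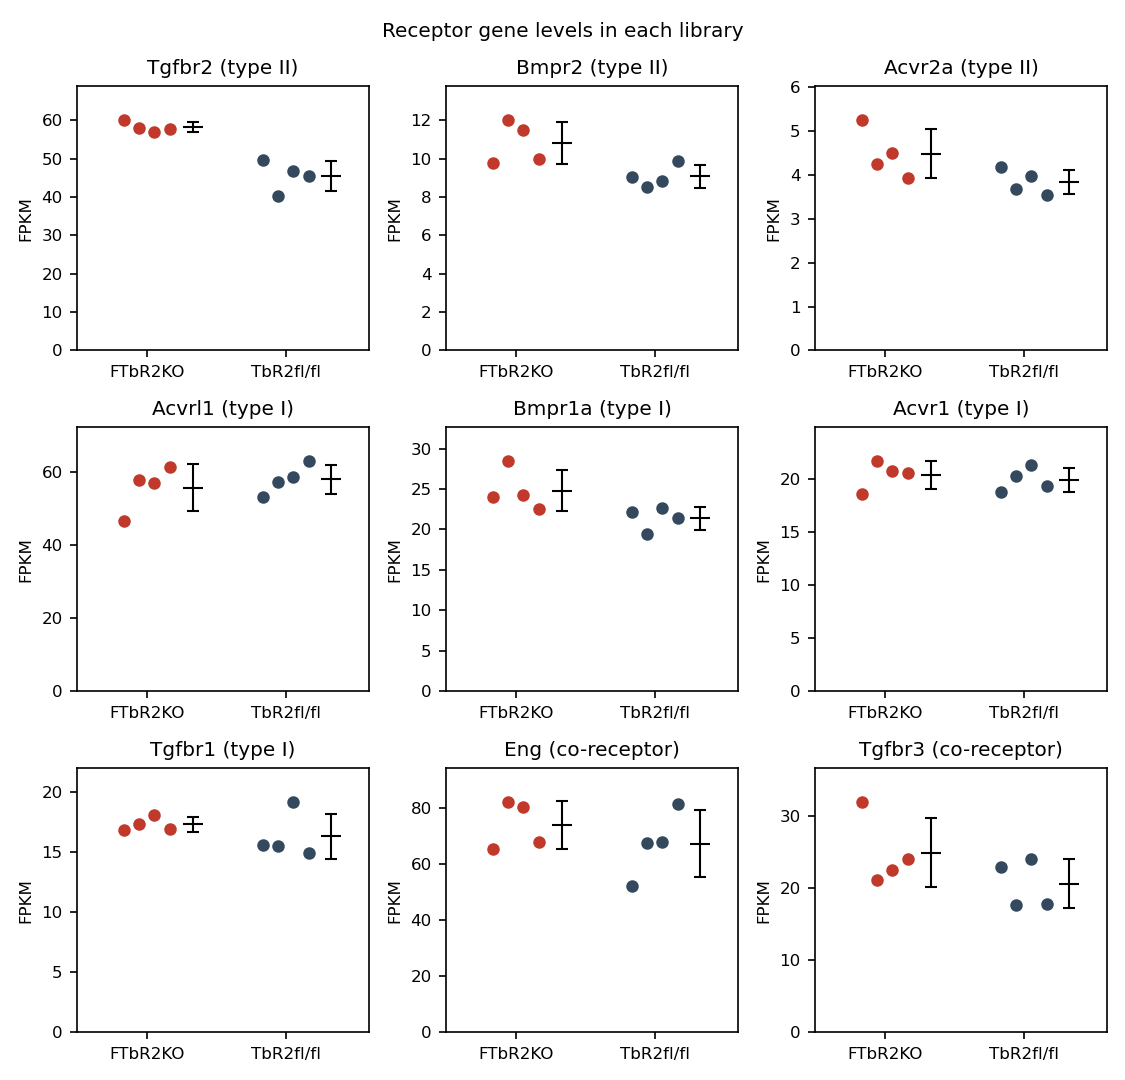
FPKM of each receptor gene in 4 FTbR2KO (red, left) and 4 TbR2fl/fl libraries (dark, right), points in title-number order from left to right, with mean ± SD (n = 4) beside them. Each axis starts at 0. The groups are separate for Tgfbr2 and overlap for the other 8 genes.

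The other type II receptors had estimates above 0, like Tgfbr2, that did not pass the adjusted threshold. Bmpr2, the main type II receptor for BMPs, measured 9.79, 12.0, 11.5 and 10 FPKM in FTbR2KO 1 to 4, against 9.05, 8.51, 8.85 and 9.91 FPKM in TbR2fl/fl 5 to 8. FTbR2KO 2, 3 and 4 exceeded all controls and FTbR2KO 1 lay just under TbR2fl/fl 8. The log2 difference was 0.23 (SE 0.086, interval 0.03 to 0.42, limma adjusted p = 0.571). Acvr2a, which binds activins and some BMPs, was the lowest member at 5.24, 4.25, 4.51 and 3.92 FPKM in FTbR2KO 1 to 4, against 4.17, 3.68, 3.97 and 3.55 FPKM in the controls. Here too 3 FTbR2KO libraries exceeded all controls, and the values rested on 420 to 696 reads. Its log2 difference was 0.17 (interval -0.02 to 0.37, limma adjusted p = 0.599).

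Among type I receptors Bmpr1a had the largest estimate, which did not pass the adjusted threshold. It measured 24.0, 28.4, 24.3 and 22.5 FPKM in FTbR2KO 1 to 4, against 22.1, 19.4, 22.7 and 21.4 FPKM in TbR2fl/fl 5 to 8. FTbR2KO 4 lay inside the control range and the other 3 lay above it (log2 difference 0.20, interval -0.01 to 0.41, limma adjusted p = 0.590). Tgfbr1, which pairs with Tgfbr2, measured 16.8, 17.3, 18.1 and 16.9 FPKM in FTbR2KO libraries, against 15.6, 15.5, 19.1 and 14.9 FPKM in controls. All 4 FTbR2KO libraries lay within the control range, since TbR2fl/fl 7 was the highest of all, and the interval was -0.11 to 0.29. Acvr1 measured 18.5 to 21.6 FPKM in FTbR2KO and 18.7 to 21.3 FPKM in TbR2fl/fl libraries, nearly the same range (interval -0.15 to 0.21). Acvrl1 was the only member below 0 on FPKM, and lay at 0.10 on TPM. It measured 46.6, 57.9, 57.0 and 61.5 FPKM in FTbR2KO 1 to 4, against 53.1, 57.3, 58.7 and 62.9 FPKM in TbR2fl/fl 5 to 8. Its log2 difference of -0.062 (interval -0.30 to 0.18, limma adjusted p = 0.887) was 0.020 without FTbR2KO 1, its lowest library.

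The co-receptors had wide spreads between samples of 1 group. Tgfbr3, which presents TGF-β2 to the signalling receptors, measured 31.8, 21.1, 22.5 and 24.0 FPKM in FTbR2KO 1 to 4, against 22.9, 17.6, 24.0 and 17.7 FPKM in TbR2fl/fl 5 to 8. FTbR2KO 1 stood above all other libraries, and without it the log2 difference was 0.14, against 0.26 with all libraries (interval -0.08 to 0.60, limma adjusted p = 0.634). FTbR2KO 1 also had the highest sum of 6 epicardial markers, 32.9 FPKM. The sum ranged from 4.29 to 32.9 FPKM in FTbR2KO and from 0.741 to 21.5 FPKM in TbR2fl/fl libraries. TbR2fl/fl 7 had the lowest sum and, at 24.0 FPKM, the highest Tgfbr3 level among controls. The part of the epicardial sum in the Tgfbr3 level was not tested. Eng, which binds BMP9 together with Acvrl1, measured 65.4, 81.8, 80.3 and 67.8 FPKM in FTbR2KO 1 to 4, against 52.0, 67.5, 67.6 and 81.3 FPKM in TbR2fl/fl 5 to 8. TbR2fl/fl 5 was the lowest and TbR2fl/fl 8 nearly the highest, so the control range covered 3 of the 4 FTbR2KO values. The log2 difference was 0.15 (interval -0.18 to 0.47, limma adjusted p = 0.780), and 0.031 without TbR2fl/fl 5. The coefficient of variation was 19.3% in FTbR2KO and 16.4% in TbR2fl/fl samples for Tgfbr3, and 11.5% in FTbR2KO and 17.9% in TbR2fl/fl samples for Eng. For Tgfbr2 it was 2.24% in FTbR2KO and 8.48% in TbR2fl/fl samples. Counting error was 4.88% at most, for Acvr2a at its fewest reads, and 2.54% at most for the other 8, and for every member it was below the coefficient of variation in both groups.

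**Figure D3:**
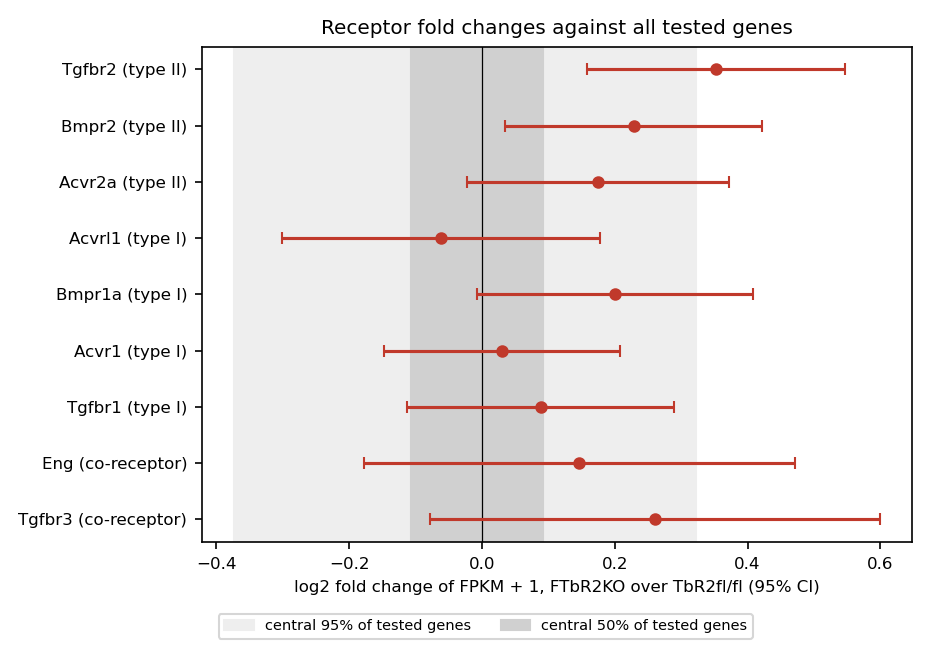
Log2 fold change of FPKM + 1, FTbR2KO over TbR2fl/fl, with 95% confidence intervals from limma (n = 4 each) for the 9 receptor genes. Light and dark bands hold the central 95% (-0.37 to 0.32) and 50% (-0.11 to 0.09) of all tested genes. Tgfbr2 (0.35) lies outside the light band, and 7 of the 9 intervals cross 0.

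Leaving out FTbR2KO 1 and TbR2fl/fl 5, the libraries that stood apart, gave log2 differences of 0.38 for Tgfbr2, 0.27 for Bmpr2, 0.23 for Bmpr1a, 0.19 for Tgfbr3 and 0.14 for Acvr2a. It gave 0.087 for Eng, 0.086 for Tgfbr1, 0.048 for Acvr1 and -0.020 for Acvrl1. No member passed the limma adjusted threshold in that setting.

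Ratios of 2 receptors within a library do not depend on how the library was scaled. The ratio of Tgfbr2 to Tgfbr1 was 3.57, 3.35, 3.14 and 3.41 in FTbR2KO 1 to 4, against 3.17, 2.60, 2.44 and 3.05 in TbR2fl/fl 5 to 8. FTbR2KO 1, 2 and 4 exceeded all controls and FTbR2KO 3 lay just under TbR2fl/fl 5 (log2 difference 0.27, exact two-sided permutation p = 0.0571, adjusted over 5 ratios 0.286). The ratio of Acvrl1 to Tgfbr1 averaged 3.22 ± 0.359 in FTbR2KO and 3.60 ± 0.495 in TbR2fl/fl samples (exact permutation p = 0.286, n = 4 each). Bmpr2 stood at 0.438 ± 0.0284 of Bmpr1a in FTbR2KO and 0.425 ± 0.0323 in TbR2fl/fl samples (exact permutation p = 0.571, n = 4 each). The ratio of Tgfbr2 to Bmpr2 was 5.42 ± 0.628 in FTbR2KO and 5.02 ± 0.426 in TbR2fl/fl samples (exact permutation p = 0.343). That of Eng to Tgfbr3 was 3.08 ± 0.818 in FTbR2KO and 3.38 ± 1.04 in TbR2fl/fl samples (exact permutation p = 0.657). No ratio passed after adjustment; with 4 against 4 samples the smallest exact p is 0.0286, so at least 3 of the 5 ratios would have had to reach it.

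**Figure D4:**
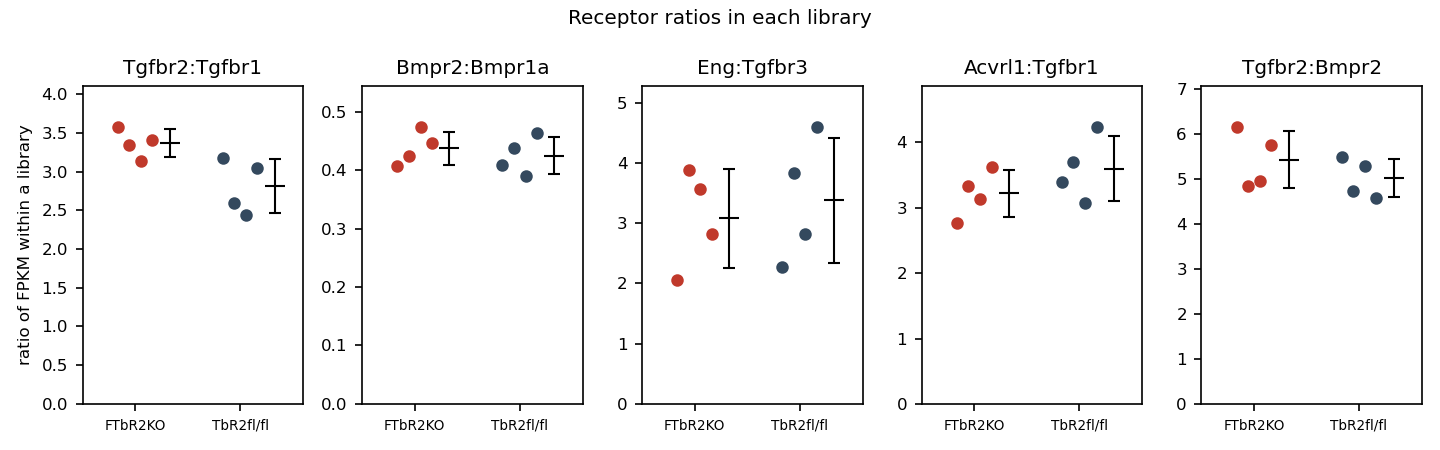
Ratio of the FPKM of 2 receptor genes within each library, 4 FTbR2KO (red, left) and 4 TbR2fl/fl (dark, right), with mean ± SD (n = 4). Each axis starts at 0. The Tgfbr2 to Tgfbr1 ratio is 3.14 to 3.57 in FTbR2KO and 2.44 to 3.17 in TbR2fl/fl libraries, and the other ratios overlap widely.

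Across the 8 libraries of both groups, 27 of 36 member pairs had a Pearson's r of log2(FPKM + 1) above 0, and r ran from -0.85 to 0.86. None passed an exact permutation test after adjustment over the 36 pairs (smallest adjusted p 0.145 for r and 0.265 for Spearman's rho), while 7 had an unadjusted p under 0.05 for r and 6 for rho. Tgfbr2 did not overlap between the groups, so an r over both groups also holds the group difference and its relations cannot be tested here: r with Bmpr1a was 0.78 over both groups and 0.49 with each group's mean subtracted, and r with Bmpr2 was 0.72 over both groups and 0.08 with the means subtracted. The highest r of the 36 pairs, 0.86, was that of Tgfbr3 and Acvr2a, with a rho of 0.52. Acvr2a and Acvrl1, whose groups overlap, had the lowest, r = -0.85 (exact permutation p = 0.0210, adjusted 0.151). Their rho was -0.76 (exact permutation p = 0.0368, adjusted 0.265). With each group's mean subtracted r was -0.94. Without FTbR2KO 1 and TbR2fl/fl 8, the highest and lowest libraries for Acvr2a, r was -0.31. Leaving these out narrows the range, so the smaller r cannot show whether the relation rested on them. The points share depth and cell makeup within a library, and these values describe the libraries.

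Genes with the most similar pattern were sought among 10508 named tested genes by r over the 8 libraries, and since they were picked as the highest they carry no test. For Tgfbr2 this r also holds the difference between the groups. For Tgfbr2 they were Zmym4 (r = 0.961), the phosphate exporter gene Xpr1 (0.956), Gpt2 (0.954), the angiomotin gene Amot (0.954) and the ubiquitin ligase gene Ubr3 (0.949). Gpt2, a mitochondrial alanine aminotransferase, is 1 of the 2 genes that limma called in this comparison (adjusted p = 0.000955). Among members the nearest to Tgfbr2 was Bmpr1a, at rank 340. For Bmpr2 the nearest were Adamts12, Ifnar1, Fat1, Trak2 and Pigg (r = 0.966 to 0.984), and for Eng Cox4i2, Cap1, Me1, Sh3glb1 and Tsg101 (r = 0.978 to 0.983).

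Around the receptors, 7 lists of pathway genes were examined by role, and Smad7 stood on 3 of them. None of their tested genes passed the adjusted threshold in either direction with limma or with voom. Of 8 tested ligands 4 lay above 0 and 4 below. Tgfb2, the ligand that depends most on betaglycan, measured 15.5 ± 3.47 FPKM in FTbR2KO and 10.3 ± 1.08 FPKM in TbR2fl/fl samples (log2 difference 0.53, SE 0.153, limma adjusted p = 0.571). The most abundant ligand, Tgfb3, measured 175 ± 17.5 FPKM in FTbR2KO and 189 ± 19.6 FPKM in TbR2fl/fl samples. Of 7 tested co-receptors 4 lay above 0. Nrp1, which encodes neuropilin 1, measured 18.3 ± 1.00 FPKM in FTbR2KO and 15.3 ± 0.330 FPKM in TbR2fl/fl samples. All 4 FTbR2KO libraries (17.2 to 19.6 FPKM) were above all controls, which reached 15.7 FPKM at most (log2 difference 0.24, limma adjusted p = 0.571). Of all tested genes, 2.52% had every FTbR2KO library above every control and 1.89% every one below. The target gene Col1a1 lay wholly below, at 3496 to 4508 FPKM in FTbR2KO and 4682 to 5338 FPKM in TbR2fl/fl libraries. The BMP co-receptor genes Rgma and Rgmb had log2 differences of 0.08 each, and their receptor Neo1 0.12.

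The 5 tested Smad transducers all lay above 0, with a median of 0.07. Smad3, which carries the TGF-β signal, had the largest value, 0.34 (SE 0.115), and the BMP Smads Smad1 and Smad5 had 0.06 and 0.07. Of 17 receptor regulators 12 lay above 0 (median 0.10). Adam17, a protease that sheds Tgfbr1 from the surface, measured 15.9 ± 1.66 FPKM in FTbR2KO and 13.5 ± 0.523 FPKM in TbR2fl/fl samples. The ubiquitin ligase Smurf2 had a log2 difference of 0.16 and the Smad anchor Zfyve9 (SARA) 0.14. Downstream, the 10 genes known as TGF-β targets gave 4 above 0 and 6 below (median -0.08), with log2 differences of -0.35 for Col1a1, -0.33 for Comp and 0.12 for Skil, a Smad co-repressor. Of 8 BMP targets 5 lay above 0 and 3 below (median 0.06). Id1 had 0.32 (SE 0.235), Id2 0.26 (SE 0.142) and the more abundant Id3 -0.12 (SE 0.15). Smad7, the inhibitory Smad, had -0.15 (SE 0.143).

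**Figure D5:**
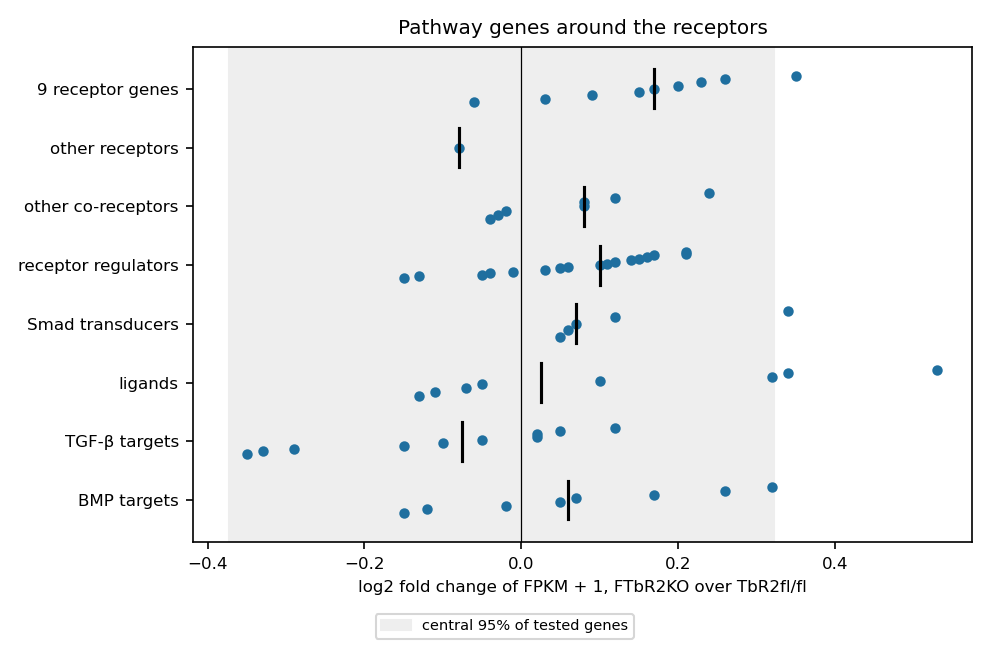
Log2 fold change of FPKM + 1, FTbR2KO over TbR2fl/fl, for each tested gene of the 9 receptors and 7 pathway lists, with the median of each list as a black bar. The grey band holds the central 95% of all tested genes (-0.37 to 0.32). The receptor genes have a median of 0.17 and the TGF-β targets one of -0.08, and no gene shown passed the adjusted threshold.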

How the data were processed

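The data were gene-level FPKM of 54532 genes in 8 samples, computed and deposited by the authors. Per the submitters' processing notes, tools included HTSeq 0.6.1, Cufflinks 2.1.1, TopHat2 2.0 and CASAVA. GRCm38.p6 and mm10 are listed as builds, and no roles are stated. Multiplying FPKM by gene length gave whole multiples of 1 step per library (100% of nonzero values within 0.01), which recovered the reads behind each value. Genes reaching 1 FPKM in 4 or more samples were tested as log2(FPKM + 1), a scale on which changes of low genes come out too small, with limma 3.58.1 in R 4.3.3 (trended variance, no covariate, Benjamini-Hochberg adjustment, two-sided). The limma test was tried on reads simulated separately for each gene, without shifts shared by many genes of a library. Its outcome is not used here. Ratios used exact permutation tests in scipy 1.17.1. Correlations used an exact permutation test over all orderings of the 8 libraries, computed with numpy 2.4.6, with the smaller tail doubled. Exons and coding sequences came from GENCODE M21 (GRCm38), whose gene coordinates matched the table for all 9 members. Members, lists, ratios and tests were chosen with earlier results of these data known.

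All members are named. From each pathway list up to 4 tested genes with the smallest p could be named, and the likeness lists hold the 5 highest r without predicted genes. Id3 was named outside this rule, because it lay below 0 where Id1 and Id2 lay above. The markers named were chosen after their values were seen. Alternatives were another pseudocount, no filter, a filter at 5 FPKM, median-of-ratios scaling, quantile normalization, TPM, array weights, voom on recovered reads, and leaving out libraries.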

Additional observations from a re-analysis of the deposited data

How the results depend on the processing

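No member passed the adjusted threshold in any of the 17 alternatives (16 for Acvr2a, which a filter at 5 FPKM removed), and all but Acvrl1 kept their direction in them. The limma adjusted p of Tgfbr2 ran from 0.157 with array weights to 0.959 without FTbR2KO 2, and its log2 difference from 0.30 to 0.52. Conversion to TPM raised the median of all tested genes by 0.15, the median of the members to 0.36 (0.21 above that of all genes) and Acvrl1 to 0.10 (-0.048 against that of all genes). Acvrl1 also lay above 0 without FTbR2KO 1 (0.020). The number of genes called was 1 with a filter at 5 FPKM and 2 to 8 when 1 library was left out, the 8 without FTbR2KO 4. Leaving out 1 library gave 0.30 to 0.39 for Tgfbr2, 0.18 to 0.27 for Bmpr2, 0.14 to 0.24 for Bmpr1a, 0.11 to 0.22 for Acvr2a, 0.14 to 0.34 for Tgfbr3, 0.031 to 0.24 for Eng, 0.049 to 0.16 for Tgfbr1, 0.001 to 0.074 for Acvr1 and -0.11 to 0.020 for Acvrl1. The log2 difference of the Eng to Tgfbr3 ratio was 0.058 without FTbR2KO 1 and 0.041 without TbR2fl/fl 8, against -0.12 with all libraries (-0.30 to 0.058 over single omissions). The causes were not tested. With 1 library left out no ratio can reach an exact p under 0.05, so those tests say nothing about stability. No paired analysis was possible because the titles give the groups no shared replicate numbers.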
